A study of Homo sapiens with 8 samples.

Results

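This account follows 10 genes that write or read methylation of lysine 36 of histone H3 (H3K36): the methyltransferase genes NSD1, NSD2, NSD3, ASH1L, SETD2, SETMAR and SMYD2, and the reader genes ZMYND11, DNMT3A and DNMT3B. They were listed by name and role, with earlier results of these data known, with no measured value in the rule, and all 10 were found among the 19821 protein-coding genes considered, those of the autosomes and X in GRCh38. The cells were neural progenitors derived from the human embryonic stem cell line H9. As stem cells they had been infected with a control lentivirus (NC) or with a lentivirus carrying a hairpin against KDM2A, sh1 or sh4, and selected with puromycin; whether each line was a clone or a pool is not given in the sources used here. The hairpins were the most effective of 5 silencing sequences designed. Chromatin immunoprecipitation (ChIP) with sequencing gave 1 peak list for KDM2A in the control cells and 1 list of regions of dimethylated H3K36 (H3K36me2) in each of the NC, sh1 and sh4 cells. No group has a replicate, both hairpins share 1 control, and no test between groups was possible, so every difference below is a difference between libraries.

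H3K36 methylation is laid down by SET-domain enzymes. NSD1, NSD2, NSD3 and ASH1L add up to the dimethyl state, while SETD2 travels with elongating RNA polymerase and adds the trimethyl state in transcribed gene bodies. KDM2A removes the dimethyl mark, and its CXXC zinc finger recognises CpG without methylation. Readers such as DNMT3A, DNMT3B and ZMYND11 recognise methylated H3K36 through a PWWP domain, and the DNMT3 proteins then methylate DNA nearby.

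The control, sh1 and sh4 lists held 19691, 19500 and 21493 H3K36me2 regions on these chromosomes, with a median of 162, 151 and 156 immunoprecipitated (IP) reads per region. A region's fold is the authors' ratio of IP to background. The KDM2A list held 504724 peaks, of which 3.08% of those on these chromosomes had a false discovery rate (FDR) under 0.05. It is therefore a permissive list. Chromosome 1 beyond 140 Mb, where ASH1L and SMYD2 lie, stood apart in sh4: regions there covered 15.5 Mb, beside 3.74 Mb for the control and 3.13 Mb for sh1. A gene without a region is one where none was detectable at this depth and at the lists' FDR limit of 1e-05, not one shown to lack the mark. Peak lists measure no expression, so they check neither the degree of knockdown nor the identity of the cells.

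KDM2A peaks within 2 kb of the outer start of these genes, where the gene's span begins on its strand, had folds of 1.87 to 2.68. The median of the list was 2.33, and none of these peaks had an FDR under 0.05. The upstream sequences below are those of RefSeq starts with a KDM2A peak overlapping part of the 250 bases before the start (NSD1, SETMAR, SMYD2 and ZMYND11). Beside them stand NSD2 and ASH1L, which have 1 RefSeq start in the table and no peak within 2 kb of it. They were chosen after the peaks had been seen. Each is the 250 bases before the start, 5′ to 3′ on the gene's strand, from RefSeq on GRCh38.p14, with every CG in capitals because CpG is the dinucleotide that KDM2A's zinc finger binds. The stretches lie at chr5:177132765-177133014 (NSD1, + strand), chr3:4303119-4303368 (SETMAR, +), chr1:214280909-214281158 (SMYD2, +), chr10:135015-135264 (ZMYND11, +), chr4:1871143-1871392 (NSD2, +) and chr1:155562804-155563053 (ASH1L, −).
NSD1: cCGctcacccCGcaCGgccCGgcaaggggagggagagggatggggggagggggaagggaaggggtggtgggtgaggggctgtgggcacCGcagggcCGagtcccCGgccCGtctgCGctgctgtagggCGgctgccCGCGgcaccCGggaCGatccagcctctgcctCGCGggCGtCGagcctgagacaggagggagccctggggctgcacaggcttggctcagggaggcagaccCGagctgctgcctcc
SETMAR: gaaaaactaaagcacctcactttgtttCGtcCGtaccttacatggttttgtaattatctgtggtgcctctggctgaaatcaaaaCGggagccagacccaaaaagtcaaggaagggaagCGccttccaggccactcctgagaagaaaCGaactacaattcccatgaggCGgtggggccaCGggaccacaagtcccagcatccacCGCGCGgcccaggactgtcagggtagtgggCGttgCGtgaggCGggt
SMYD2: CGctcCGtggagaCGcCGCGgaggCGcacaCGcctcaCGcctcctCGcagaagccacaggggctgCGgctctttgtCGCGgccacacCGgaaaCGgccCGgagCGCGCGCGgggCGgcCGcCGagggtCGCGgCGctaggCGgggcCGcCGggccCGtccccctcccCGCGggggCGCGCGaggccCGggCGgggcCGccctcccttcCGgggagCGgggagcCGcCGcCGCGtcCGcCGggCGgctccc
ZMYND11: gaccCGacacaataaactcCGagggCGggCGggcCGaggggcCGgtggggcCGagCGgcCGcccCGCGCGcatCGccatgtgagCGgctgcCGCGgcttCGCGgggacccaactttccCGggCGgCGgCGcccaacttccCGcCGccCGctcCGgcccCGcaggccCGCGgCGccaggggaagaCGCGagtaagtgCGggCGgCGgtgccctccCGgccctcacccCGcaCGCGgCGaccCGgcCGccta
NSD2: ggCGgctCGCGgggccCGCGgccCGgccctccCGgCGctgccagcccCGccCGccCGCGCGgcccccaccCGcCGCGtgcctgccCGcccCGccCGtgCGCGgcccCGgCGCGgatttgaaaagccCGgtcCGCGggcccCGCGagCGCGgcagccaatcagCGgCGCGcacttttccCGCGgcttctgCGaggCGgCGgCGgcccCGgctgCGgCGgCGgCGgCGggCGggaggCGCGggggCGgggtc
ASH1L: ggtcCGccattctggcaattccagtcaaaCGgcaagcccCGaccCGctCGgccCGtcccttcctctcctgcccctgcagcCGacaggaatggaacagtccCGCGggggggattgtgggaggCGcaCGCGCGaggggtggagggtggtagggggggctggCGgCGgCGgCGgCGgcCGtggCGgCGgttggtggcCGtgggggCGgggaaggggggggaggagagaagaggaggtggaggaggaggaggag

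CG reads the same on both strands, and 96.9% of the 15812 protein-coding genes with a RefSeq sequence hold at least 1 in these 250 bases, with a median of 17. The NSD2 stretch held 50, a count reached by 0.139% of those genes, and had no KDM2A peak within 2 kb. SMYD2 held 46, reached by 0.506%, and carried a peak at its far edge, chr1:214280769-214280949 (FDR 0.273). ZMYND11 held 42 before an inner start, and its peak, chr10:134870-135020 (FDR 0.533), also reached only the far edge of the stretch. ASH1L held 23 before a start 399 bp inside the outer end, NSD1 19 before an inner start, and SETMAR 13. Stretches rich in CG thus occurred both with a called peak at the edge and without a called peak. The number of CG in a stretch is a description of its letters and says nothing of their methylation in these cells.

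Of the 9 genes with a known strand, 5 had a KDM2A peak within 2 kb of the outer start (NSD1, SETD2, SETMAR, SMYD2 and ZMYND11), against 66.1% of all protein-coding genes with a known strand and 65.1% of those of 10 to 300 kb. With an FDR under 0.05 the count was 0 of 9, against 3.43% and 3.26%. Counting any RefSeq start, 6 of 9 had a peak, with DNMT3B added, against 70.3% and 70.1%. At either end, 8 of 10 had a peak, against 84.0% and 84.4%, and 0 of 10 had one with an FDR under 0.05, against 5.55% and 5.45%. These shares lay near the background.

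The peak closest to an outer start was that of SETMAR, which fuses a SET domain to a transposase domain. Its midpoint lay 40 bp inside the gene, with a fold of 2.41, an FDR of 0.437 and a pileup (height of stacked fragments) of 8. At SMYD2, whose enzyme methylates histones and other proteins such as p53, a peak lay 300 bp upstream with a fold of 2.68, an FDR of 0.273 and a pileup of 9. Both folds lay a little above the list's median of 2.33, and neither peak had an FDR under 0.05. The SETMAR peak also lay within the gene SUMF1, and the SMYD2 peak within the long noncoding RNA gene LOC124904509.

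For NSD1, the Sotos syndrome gene, the outer start had peaks with folds of 2.59 (FDR 0.314) and 1.87 (FDR 0.693) within 2 kb. The latter lay with its midpoint 27 bp from an inner RefSeq start, that of the sequence printed above. A further peak, 2.96 kb inside the gene, had a fold of 3.19 and an FDR of 0.102. ZMYND11 had a peak 671 bp upstream of its outer start with a fold of 1.95 (FDR 0.693). A second peak, with a fold of 2.24 (FDR 0.533), lay over the edge of the CG-rich stretch before the start 5177 bp further in. SETD2 had a peak 1249 bp inside its start with a fold of 2.49 and an FDR of 0.333.

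No peak was called within 2 kb of the outer start of NSD2, ASH1L, DNMT3A or DNMT3B. ASH1L and DNMT3A had peaks only at the other end, with folds of up to 2.02 and 2.36, and NSD2 had 1 there with a fold of 2.42. The nearest peak to the outer start of DNMT3B lay 2.10 kb inside, with a fold of 2.06 (FDR 0.630). The only RefSeq start listed for DNMT3B, 17467 bp inside, had 2 peaks within 2 kb, the nearer with a fold of 2.19 (FDR 0.437). NSD3, for which the tables used give no strand, had no peak within 5 kb of either end, as was true of 3.29% of protein-coding genes and 2.66% of those of 10 to 300 kb.

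KDM2A peaks with an FDR under 0.05 lay inside the bodies of ASH1L, SETD2 and ZMYND11, far from their outer starts. All 10 bodies held a peak, against 90.1% of protein-coding genes and 98.0% of those of 10 to 300 kb, and 3 of 10 held one with an FDR under 0.05, against 20.1% and 23.3%. The genes are long, 13.9 to 228 kb against a median of 24.5 kb. Among genes of 40 to 300 kb, a range chosen after the values were seen that takes in 9 of the 10, 99.9% held a peak and 35.1% held one with an FDR under 0.05. The count is therefore near the background for long genes.

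ASH1L, which encodes a Trithorax-group methyltransferase (gene 55870, chr1:155335268-155563202, − strand), held the highest KDM2A fold among the 10 genes. Its peak at chr1:155489559-155490037 had a fold of 6.56, an FDR of 5.25e-09 and a pileup of 20, and lay 73.4 kb from the start. Only 0.0149% of the peaks on these chromosomes had a fold as high. Another peak, 148 kb from the start, had a fold of 3.54 and an FDR of 0.0272. Of the gene's 36 body peaks, these 2 passed that limit.

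SETD2 (gene 29072, chr3:47016436-47164840, − strand) held 20 peaks in its body. Those with an FDR under 0.05 lay 109 kb from the start (fold 3.84, FDR 0.00336, pileup 15) and 87.5 kb from it (fold 3.48, FDR 0.0454, pileup 11). ZMYND11 (gene 10771, chr10:130088-254637, + strand) held 24, of which 1 passed, 56.1 kb from the outer start (fold 3.70, FDR 0.0246, pileup 11). An inner RefSeq start of ZMYND11, 49906 bp inside the outer start, lay closer to that peak. The sources used here give both ends of each gene but not its exons, so these peaks could not be placed in introns or exons.

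The other 7 genes held no body peak with an FDR under 0.05. Their highest folds were 3.29 in NSD3 (FDR 0.0851), 3.20 in DNMT3A, 3.19 in NSD1, 2.98 in NSD2, 2.95 in SMYD2, 2.59 in SETMAR and 2.56 in DNMT3B. Median folds within the 10 bodies ran from 2.16 in SETD2 to 2.43 in ASH1L. Over all 175 body peaks the median fold was 2.29, and 2.86% had an FDR under 0.05, against 3.08% of all peaks on these chromosomes.

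**Figure D1:**
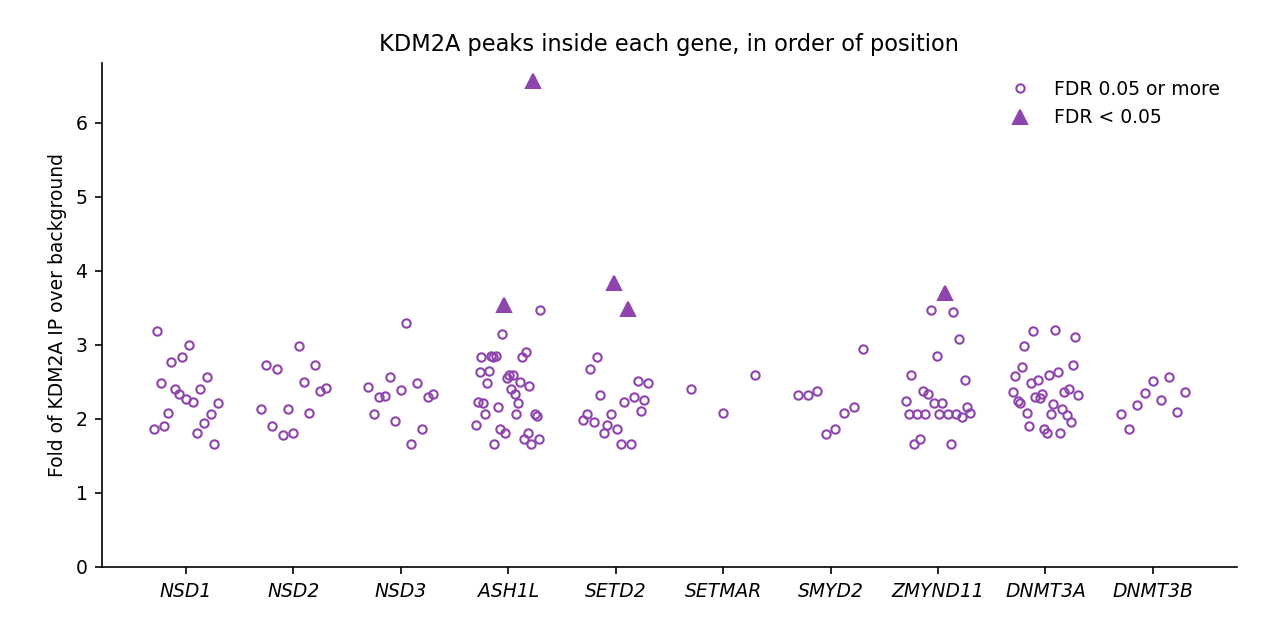
Fold of KDM2A IP over background (vertical axis, linear, from 0) for each of the 175 KDM2A peaks inside the 10 genes, in order of genome position within a gene, control cells, 1 library. Filled triangles mark the 5 peaks with an FDR under 0.05, in ASH1L, SETD2 and ZMYND11, and the ASH1L peak with a fold of 6.56 stands above the rest.

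The density of KDM2A peaks differed among the genes. NSD1, NSD3 and NSD2 had the fewest, at 1.13, 1.15 and 1.17 peaks per 10 kb. SETD2 had 1.35, SMYD2 1.43, ASH1L 1.58, DNMT3B 1.92, ZMYND11 1.93, SETMAR 2.16 and DNMT3A 2.62. The median of the 10 was 1.5, beside 1.80 over genes of 10 to 300 kb, whose 10th and 90th percentiles were 0.765 and 3.50. All 10 genes lay between those percentiles.

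H3K36me2 regions lay in 6 of the 10 genes, in 15 regions in all. The control had 8 of them in ASH1L, SETD2, SMYD2, DNMT3A and DNMT3B. The sh1 library had 5 in ASH1L, SETD2, SMYD2 and ZMYND11, and the sh4 library had 2 in ASH1L and ZMYND11. NSD1, NSD2, NSD3 and SETMAR had none in any library. A region in the body was found in 20.0%, 16.2% and 15.4% of protein-coding genes in control, sh1 and sh4, and in 23.7%, 18.5% and 17.7% of those of 10 to 300 kb. Among genes of 40 to 300 kb the shares were 39.3%, 32.5% and 31.2%, beside 5, 4 and 2 of the 9 members in that range. Regions covered 42.8 kb of the 10 genes in the control, 22.6 kb in sh1 and 9.80 kb in sh4, which is 3.81%, 2.01% and 0.872% of their summed length.

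**Figure D2:**
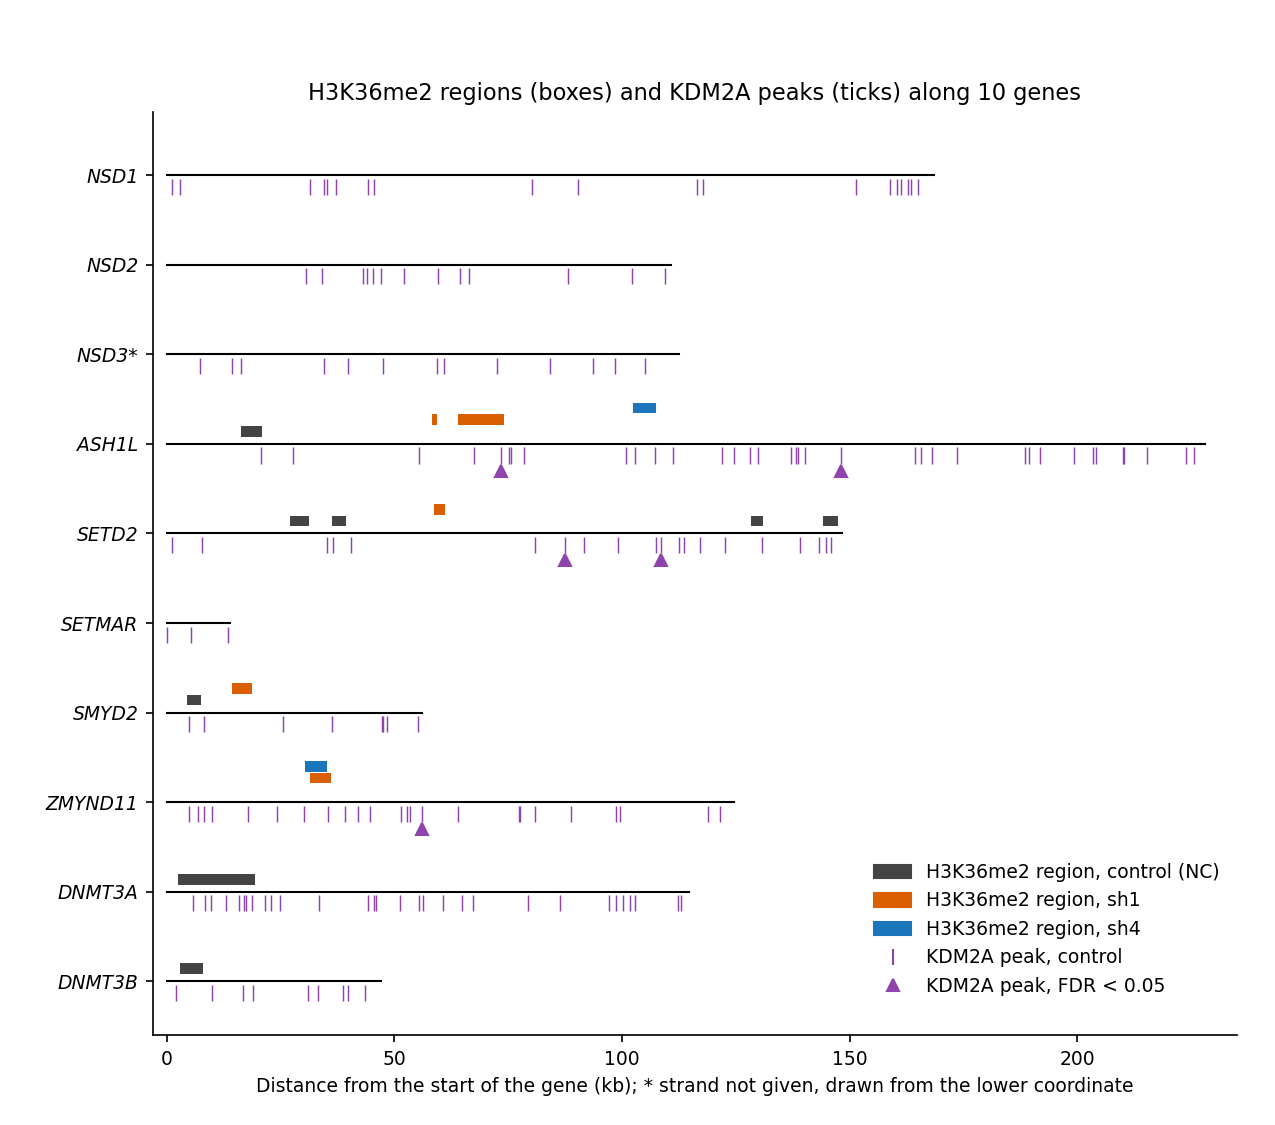
Position of H3K36me2 regions (boxes: control NC dark grey, sh1 orange, sh4 blue) and of KDM2A peaks in control cells (purple ticks, triangles for an FDR under 0.05) along the 10 genes, as distance in kb from the outer start of each gene; NSD3, without a strand, is drawn from its lower coordinate. Boxes of different libraries overlap only in ZMYND11, where sh1 and sh4 share 3600 bp.

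Among the writers, SETD2 held 4 control regions, 1 sh1 region and none in sh4, with coverage (the percent of the gene's length inside regions) of 9.03%, 1.62% and 0%. The control regions lay 27 to 31.2, 36.2 to 39.4, 128 to 131 and 144 to 147 kb from the start. Their folds were 1.48, 2.38, 1.66 and 1.58. The region at chr3:47125401-47128600, with 121 IP and 50 input reads (fold 2.38, counting interval 1.70 to 3.38), was the only 1 of the 15 to pass an exact binomial test of IP against input reads at an FDR of 1e-05. Most regions anywhere failed that test. Over all regions, 1759 of 19691 passed in the control, 3296 of 19500 in sh1 and 5031 of 21493 in sh4. The sh1 region, at chr3:47103801-47106200, had 98 IP and 48 input reads (fold 2.02, 1.42 to 2.92) and lay 58.6 to 61.0 kb from the start, away from all control regions. A further control region lay 16.8 kb upstream of the gene with a fold of 2.28.

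ASH1L carried regions in all 3 libraries, at places that did not overlap between them, as was true of 28.3% of the protein-coding genes with regions in all 3 libraries and 35.2% of those of 40 to 300 kb. Regions took up 2.02% of the gene in the control library, 4.91% with sh1 and 2.19% with sh4. The control region lay nearest the start, 16.4 to 21.0 kb into the gene (148 IP and 96 input reads, fold 1.52, 1.17 to 1.98). The sh1 regions lay at 58.2 to 59.4 kb (71 and 27 reads, fold 2.60, 1.65 to 4.22) and at 64.0 to 74.0 kb (311 and 231 reads, fold 1.33, 1.12 to 1.59). The sh4 region lay at 102 to 107 kb (199 and 119 reads, fold 1.65, 1.31 to 2.09). The KDM2A peak with a fold of 6.56, measured in control cells, lies inside the wide sh1 region, chr1:155489201-155499200. Neither the control nor sh4 had a region called there, and the sh1 region, with its fold of 1.33, did not pass the binomial test. The control region contains a KDM2A peak with a fold of 3.47 and an FDR of 0.0644.

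SMYD2 (gene 56950, chr1:214281159-214337131, + strand) had 5.36% of its length in regions in the control, 7.86% with sh1 and 0% with sh4. Such an order, with 1 hairpin above and 1 below the control, was found in 4.75% of protein-coding genes, 5.26% of those of 10 to 300 kb and 9.85% of those of 40 to 300 kb. The control region lay 4.44 to 7.44 kb from the start (125 IP and 74 input reads, fold 1.66, 1.24 to 2.25). The sh1 region lay 14.2 to 18.6 kb from it (182 and 124 reads, fold 1.45, 1.15 to 1.84). In sh4, 3 regions lay upstream within 100 kb, the nearest 10.4 kb from the gene. Leaving out the gene itself, the 1 Mb around SMYD2 was covered over 4.05%, 5.49% and 9.36% in control, sh1 and sh4. The 1 Mb around ASH1L, on the same arm, was covered over 0%, 0.492% and 0%. The wider sh4 coverage of that arm thus showed around SMYD2 but not around ASH1L, and its part in the values inside these genes was not tested.

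The NSD genes held no called H3K36me2. The nearest region to NSD1 (gene 64324, chr5:177131798-177300213) lay 323, 210 and 1560 kb away in control, sh1 and sh4. For NSD2 (gene 7468, chr4:1871393-1982192) the distances were 945, 1530 and 183 kb, and for NSD3 (gene 54904, chromosome 8, 38269704 to 38382271) 258, 450 and 869 kb. Among genes of 10 to 300 kb without a region, the median distance was 113, 241 and 294 kb and the 90th percentile 718, 2620 and 3040 kb. Of the 9 distances, 1, that of NSD2 in the control, thus lay beyond the 90th percentile. In the 1 Mb around NSD1, leaving out the gene, regions covered 0.265%, 1.18% and 0% in control, sh1 and sh4, around NSD2 0%, 0% and 0.315%, and around NSD3 2.59%, 0% and 0%. SETMAR (gene 6419, chr3:4303369-4317265) also had no region. Control, sh1 and sh4 regions lay 10.7, 75.9 and 15.3 kb from it, within the gene SUMF1, and the 1 Mb around it, without the gene, was covered over 9.93%, 4.50% and 5.44%. No region in any library was called in 70.6% of protein-coding genes, 63.7% of those of 10 to 300 kb and 42.0% of those of 40 to 300 kb.

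Among the readers, both DNA methyltransferase genes had 1 control region close to the outer start and none in either hairpin library. DNMT3A (gene 1788, chr2:25227874-25342590, − strand) was covered over 14.6%, 0% and 0%. Its region, chr2:25323201-25340000, was the widest of the 15 at 16.8 kb and the lowest in fold, 1.26 (1.12 to 1.42), from 631 IP and 494 input reads. It began 2.59 kb from the outer start, ended 19.4 kb from it, contained the microRNA gene MIR1301 and held 8 of the gene's 30 KDM2A peaks, each with an FDR of 0.102 or more. Of the 25 RefSeq starts of these genes, 1, an inner start of DNMT3A, had an H3K36me2 region within 2 kb, beside 6.11% of the RefSeq starts of protein-coding genes.

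DNMT3B (gene 1789, chr20:32762385-32809356, + strand) was covered over 10.6%, 0% and 0%. Its control region lay 3.02 to 8.02 kb from the outer start, upstream of the only listed RefSeq start. It had 187 IP and 128 input reads and a fold of 1.44 (1.14 to 1.81), and held no KDM2A peak. Its FDR of 6.71e-06 was close to the limit of 1e-05 that the deposited lists keep. In the hairpin libraries the nearest region to DNMT3A lay 111 kb away in sh1 and 51.1 kb away in sh4, and to DNMT3B 414 and 701 kb.

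ZMYND11, which encodes a reader of trimethylated H3K36 that restrains elongation, had the reverse order of libraries. No control region lay in it (0%), while regions covered 3.69% of it with sh1 and 3.85% with sh4. The sh1 region, chr10:161601-166200, had 158 IP and 87 input reads (fold 1.80, 1.37 to 2.36). The sh4 region, chr10:160401-165200, had 149 and 85 reads (fold 1.73, 1.32 to 2.29). Their counting intervals overlapped, and they shared 3600 bp: the sh1 region lay 31.5 to 36.1 kb and the sh4 region 30.3 to 35.1 kb from the start. These 2 were the only ones of the 15 regions to overlap a region of another library, beside 26.8% of all regions in the 3 lists. The nearest control region lay 205 kb away.

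**Figure D3:**
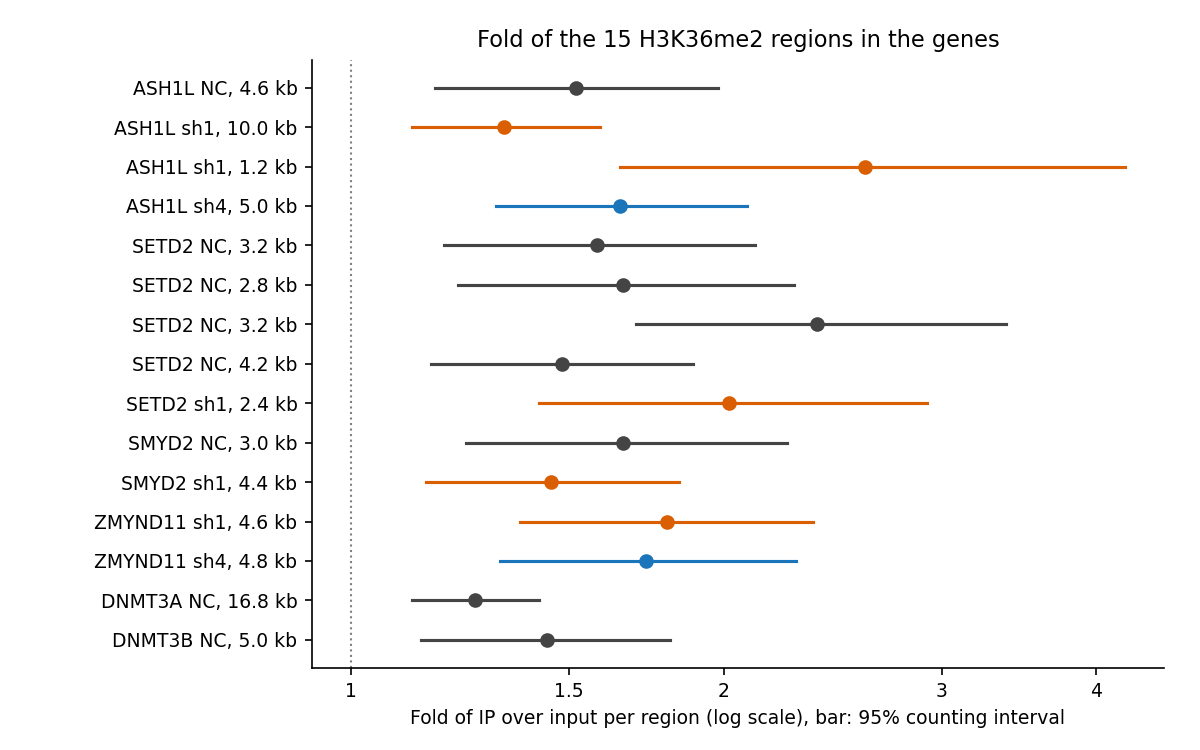
Fold of IP over input (horizontal log axis) for each of the 15 H3K36me2 regions in the genes, with the 95% counting interval from the recovered read counts as a bar (control NC dark grey, sh1 orange, sh4 blue) and the width of each region beside its name. Folds run from 1.26 for the DNMT3A control region to 2.60 for the narrow ASH1L region of sh1. Every interval lies above 1. The reads were recovered from the fold and p-value by which these regions were called, so this adds no evidence of enrichment.

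Both hairpin libraries had lower coverage than the control in 3 of the 10 genes (SETD2, DNMT3A and DNMT3B), against 12.6% of protein-coding genes, 16.0% of those of 10 to 300 kb and 24.6% of those of 40 to 300 kb. Both had higher coverage in 2 (ASH1L and ZMYND11), against 4.69%, 5.18% and 9.68%. For ASH1L the sh4 value was only slightly higher: 5000 bp covered against 4600 bp in the control, from 1 region each. These counts rest on few regions. With only regions above the median control fold of 1.59, DNMT3A, DNMT3B and ASH1L were at 0% in the control, and the genes lower in both were SETD2 and SMYD2. With only regions passing the binomial test, SETD2 alone was lower and no gene was higher. That test left out most regions of every list and kept the fewest in the control. The SMYD2 order was mixed, and the other 4 genes were at 0% throughout. Median coverage of the 10 genes was 1.01%, 0% and 0% in control, sh1 and sh4, beside 0% in each library over genes of 10 to 300 kb. Mean coverage was 4.17%, 1.81% and 0.605%, beside 2.42%, 1.59% and 1.72%. Among the 15 regions, 7 had an FDR above 1e-06, within 10 times the limit; over all regions the shares were 32.5%, 26.2% and 22.5%. Whether uncalled stretches fell just short of that limit was not tested, since the lists hold called regions only.

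**Figure D4:**
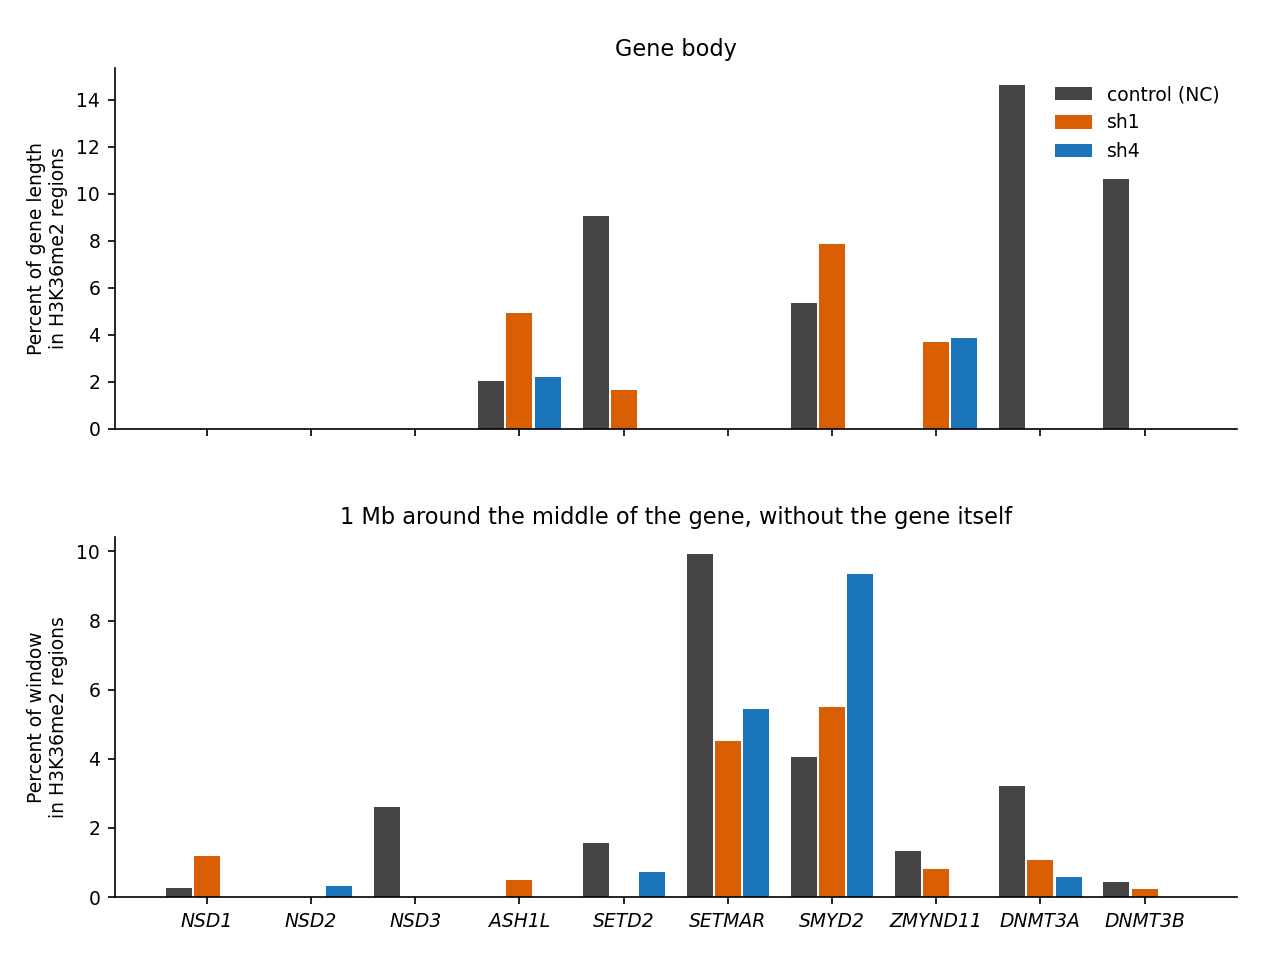
Percent of length inside H3K36me2 regions for each gene body (upper panel) and for the 1 Mb around the middle of each gene without the gene itself (lower panel, shortened for ZMYND11 by the chromosome end), control NC dark grey, sh1 orange, sh4 blue, 1 library each. DNMT3A and DNMT3B have control bars only, ZMYND11 has hairpin bars only, and the sh4 bar at SMYD2 is 0 in the gene and 9.36% around it.

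The surroundings of each gene were measured over the 1 Mb centred on it, leaving out the gene itself. Around DNMT3A, regions covered 3.21%, 1.08% and 0.565% in control, sh1 and sh4, and around DNMT3B 0.441%, 0.231% and 0%. Around SETD2 the values were 1.55%, 0% and 0.728%. For these 3 genes the control was the highest both inside and around the gene. The control was also the highest around NSD3 (2.59%, 0% and 0%) and SETMAR (9.93%, 4.50% and 5.44%), which held no region. It was not the highest around NSD1, NSD2, ASH1L or SMYD2. How often the control was the highest around other genes was not counted. Around ZMYND11 the values were 1.34%, 0.810% and 0%, so the control was the highest around the gene and the lowest inside it.

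The genes most like each well-covered member over the 3 libraries, among genes of 10 to 300 kb, were as follows; nothing about shared function or control is implied, and each pattern rests on 3 libraries. For DNMT3A they were PIK3CG, ARHGEF10 and NDP, each at 14.6%, 0% and 0%, with a largest difference of at most 0.0195 percentage points. For DNMT3B they were ASPN, C10orf67 and SLC16A6, each at 10.6%, 0% and 0%. For SETD2 they were PLXNA2, HSPA12A and IQGAP1, the closest being PLXNA2 at 9.36%, 1.71% and 0%. For SMYD2 they were CDCA7L, SORT1 and RALY, the closest being CDCA7L at 5.33%, 8% and 0%.

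KDM2A peaks and control H3K36me2 regions met in the bodies of DNMT3A, SETD2, ASH1L and SMYD2. Of the 175 body peaks, 14 (8%) overlapped a control region, beside 3.78% of the body peaks of genes of 10 to 300 kb, and 8 of the 14 lay in the single DNMT3A region. Regions of sh1 and of sh4 each overlapped 3 (1.71%), beside 2.57% and 2.48%. KDM2A was measured in control cells only.

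Among 27 further genes of H3K36 methylation (other SET enzymes, demethylases, and readers or partners), 15 of 24 with a known strand had a KDM2A peak at the start and 24 of 27 at either end, and 6 of 27 held a body peak with an FDR under 0.05. Over all protein-coding genes the shares were 66.1%, 84.0% and 20.1%, so these counts lay near the background. The only end peak with an FDR under 0.05 was at HDGFL2, a PWWP-domain reader gene (fold 3.51, FDR 0.0429). Of all protein-coding genes, 5.55% had such an end peak. H3K36me2 regions lay in 4, 6 and 3 of the 27 genes in control, sh1 and sh4, beside 20.0%, 16.2% and 15.4% of protein-coding genes. No region in any library was called in 18, beside 70.6%. Coverage was lower in both hairpins for 4 and higher in both for 0, beside 12.6% and 4.69% of protein-coding genes. Those with 10% or more in any library were PWWP2B at 30.0%, 0% and 0%, PWWP2A at 12.0%, 3.46% and 7.99%, both PWWP-domain readers, and PRDM9, the meiotic methyltransferase gene, at 0%, 36.5% and 0%. PWWP2B thus shared the order of DNMT3A and DNMT3B. So did SETD5, another SET enzyme gene, at 4.97%, 0% and 0%, and FABP7, a radial glia gene outside this list, at 21.8%, 0% and 0%. The order is therefore not particular to readers.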

How the data were processed

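Peak lists of 4 of the 8 libraries were used; the 4 inputs were not analysed here as libraries. The submitters' processing notes list GRCh38 (hg38) as the build and SICER, MACS2 and Bowtie 1.1.2 as tools, without roles. The authors' deposited lists give per region or peak a fold (linear ratio of IP to background), a p-value and FDR from the peak caller, a score (a log2 scaling of the fold, in the H3K36me2 lists) and, for KDM2A, the pileup, a signal. Starts of H3K36me2 regions lie on a grid of 200 bp and are given here counted from 1. IP and input reads per region were recovered from fold and p-value under a Poisson model. Input counts came out within 0.01 of whole in 100% of regions per library. In control, sh1 and sh4, 5, 3 and 6 regions with a p too small were left out of this step. Those regions were counted as passing the binomial test without recovered reads. Intervals are exact (Clopper-Pearson, 95%) and cover counting error only; how deeply KDM2A was sequenced is unknown.

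Genes came from RefSeq on GRCh38.p14, without 679 genes of unplaced or alternate sequences. Strand and starts came from a RefSeq promoter table that held 9 of the 10 genes; the outer start is the end of the gene span on that strand. A peak or region counted with an overlap of 1 bp. The background is all protein-coding genes (15812 for starts). Windows of 1 Mb were planned with the gene included; leaving it out was chosen after seeing the data, since its own regions made up much of several windows. The rule for named genes took all members, further H3K36 genes with a KDM2A end peak under the FDR limit or coverage of 10% or more, and the 3 genes closest in coverage to members at 5% or more. Members and lists were chosen with earlier results of these data known. The scripts were tested on simulated intervals and reads, in Python 3.11.15 with numpy 2.4.6, pandas 2.3.3, scipy 1.17.1 and matplotlib 3.10.9.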

Additional observations from a re-analysis of the deposited data

Results flagged for a closer look

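SMYD2 was flagged because sh1 lay above and sh4 below their shared control: H3K36me2 regions took up 5.36% of its body in control cells, 7.86% with sh1 and 0% with sh4. Hairpins on opposite sides of the control were found in 9.85% of genes of 40 to 300 kb. With 9 members in that range, 1 such gene lies near the background. The difference between hairpins at SMYD2 was not tested, since each is 1 library. Each nonzero value is 1 called region. When regions had to exceed the median fold of the control, sh1 was at 0% as well.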

How the results depend on the processing

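Each group is 1 library, so leaving out replicates was not possible, and no call rests on a test between groups. No paired analysis was possible because the labels give no replicate numbers. Genes with a KDM2A peak at the start numbered 5, and 3 with 1 kb windows, 0 with an FDR under 0.05 and 0 when the top 10% of peaks by fold were kept. At either end they numbered 8, and 4 with 1 kb windows and 0 with the FDR limit. In the body they numbered 10, and 3 with the FDR limit. The median number of body peaks per 10 kb was 1.5, and 0.0741 when the top 10% by fold were kept. Genes with H3K36me2 in the control numbered 5, and 2 when regions had to exceed the median control fold and 1 with the binomial test. In sh1 (4) and sh4 (2) the binomial test left 0. It also left out most of all regions in each library. Genes lower in both hairpins numbered 3 and were 1 (SETD2) with the binomial test; genes higher in both numbered 2 and were 0. With the fold limit the genes lower in both were SETD2 and SMYD2, so DNMT3A and DNMT3B rest on regions of low fold. Without ASH1L and SMYD2, an alternative chosen after seeing the data, the genes with H3K36me2 numbered 3, 2 and 1 in control, sh1 and sh4, and 1 was higher in both. Adding 5 kb to each end moved 0 of 30 coverage values beyond 1.5 times. The fold limit moved 6 of 30, to 0% for ASH1L, DNMT3A and DNMT3B in the control and SMYD2 in sh1, to 0.526% for ASH1L in sh1 and to 4.04% for SETD2 in the control. Leaving the gene out of its 1 Mb window, as the values above do, moved 8 of 30 window values beyond 1.5 times.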

Other observations

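Markers of neural progenitors and of other cell types were placed on the same lists, as values only. Of 13 such genes, 9 had a KDM2A peak within 2 kb of either end, and 0 had one with an FDR under 0.05, beside 84.0% and 5.55% of protein-coding genes. FABP7, a radial glia gene, was the only 1 of the 13 with an H3K36me2 region in any library. Of all protein-coding genes, 70.6% had no region in any library. All the markers but FABP7 and PAX6 are shorter than the median protein-coding gene, 24.5 kb. Of the 7 progenitor genes, SOX1, PAX6, FABP7 and HES5 each had 2 peaks within 2 kb of an end and SOX2, NES and VIM had 0. Of the markers of other cell types, NANOG had 0 and the rest had 2 to 4.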
